A study of Drosophila melanogaster with 28 samples.

Results

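The X chromosome regions that held a peak of CLAMP or of a CLAMP mutant but no MSL2 peak numbered 275. There were 354 X regions with a peak of the CLAMP or FLAG antibody, and 1098 regions in all. The 275 were chosen by the authors' peak calls. The peaks of 9 lists were merged where they shared at least 1 bp, and a merged region on X was kept if it held a peak of at least 1 of 6 CLAMP or FLAG antibody lists and none of 3 MSL2 antibody lists. The count and its share of the X CLAMP regions (77.7%, exact 95% interval 73.0 to 81.9) are therefore a description and carry no test. Of the autosome CLAMP regions, 294 of 349 lacked an MSL2 peak (84.2%, 80.0 to 87.9).

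Chromatin was assembled in vitro for 5 h on genomic DNA purified from the Drosophila cell line BG-3, which derives from larval nervous tissue, and proteins were bound for 30 min before crosslinking and partial MNase digestion. The FLAG antibody was used with the CLAMP mutant alone and with CLAMP alone. The CLAMP antibody was used with MSL2 and the mutant, with the mutant alone, with MSL2 and CLAMP, and with CLAMP alone. The MSL2 antibody was used with MSL2 and the mutant, with MSL2 and CLAMP, and with MSL2 alone, and each antibody had a negative control. The labels describe neither the mutation nor what the assembly mixture held besides the DNA. For each CLAMP or FLAG list the authors merged 2 libraries before calling peaks, and for each MSL2 list 3. No value below therefore has a replicate error, and intervals cover the counting error of regions only.

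CLAMP binds GA-rich DNA on all chromosomes through its zinc fingers. On the male X it is known to help recruit the dosage compensation complex, which raises transcription of X-linked genes. MSL2 is the DNA-binding subunit of that complex. CLAMP also binds many sites where the complex is not found. The regions described here are X regions of reconstituted chromatin called for CLAMP or its mutant and not for MSL2. Of these, 25 were called for the mutant only. Whether they are sites without the complex in cells was not tested. Sequence was not analysed here.

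The regions without MSL2 were held mostly by a pair of lists, the FLAG list of CLAMP and the CLAMP antibody list of CLAMP with MSL2. In the FLAG precipitation, the mutant had 76 of the 275 regions (27.6%) and CLAMP 128 (46.5%), where 20.4% and 32.2% of all 1098 regions held such peaks. With the CLAMP antibody, the mutant had 30 of them with MSL2 (10.9%) and 13 alone (4.73%), against 6.38% and 3.46% of all regions. CLAMP had 149 with MSL2 (54.2%) and 35 alone (12.7%), against 39.1% and 6.74% of all regions. The rule used these lists, so nothing is read from the difference to those shares. The FLAG list of CLAMP and the CLAMP antibody list of CLAMP with MSL2 were the longest of the 6 over the series (354 and 429 peaks). They held 47.6% and 56.1% of the autosome regions without MSL2. The 6 lists rest on totals between 3875205 tags (CLAMP with MSL2) and 23512312 tags (FLAG mutant). Tags in peaks made up 1.38% and 2.50% in the FLAG lists of the mutant and of CLAMP. With the CLAMP antibody they made up 0.0377% for the mutant with MSL2, 0.0328% for the mutant alone, 0.627% for CLAMP with MSL2 and 0.0658% for CLAMP alone.

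**Figure D1:**
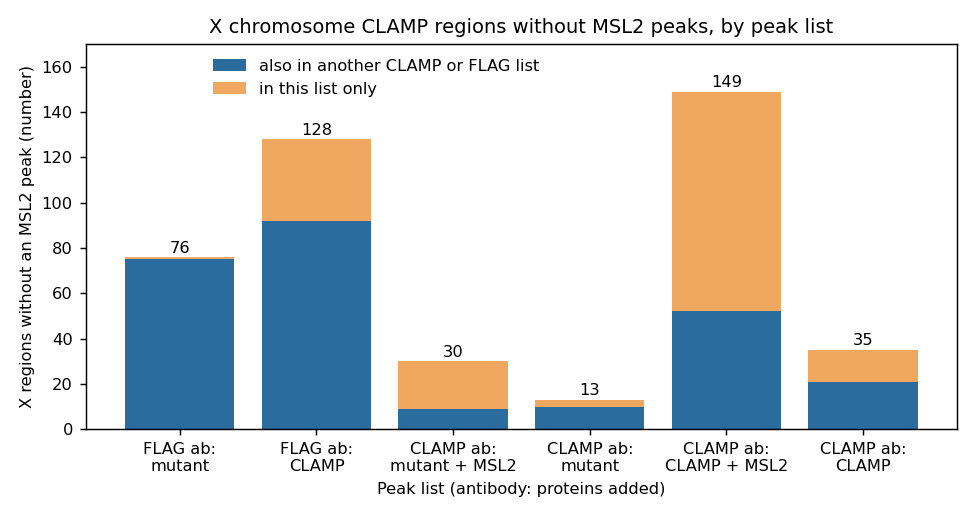
Number of X regions without an MSL2 peak (vertical axis) in each of the 6 CLAMP and FLAG antibody lists (horizontal axis), split into regions also found in another of these lists (blue) and regions found in that list only (orange). The FLAG mutant list has 1 region of its own of 76, and the CLAMP antibody list of CLAMP with MSL2 has 97 of 149.

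How far a list stood alone differed between lists. Of the 275 regions, 172 (62.5%) were in 1 list, 66 in 2, 27 in 3, 6 in 4, 2 in 5 and 2 in all 6. In the FLAG lists, 1 of the 76 mutant regions and 36 of the 128 CLAMP regions were in no other list. With the CLAMP antibody, 21 of the 30 regions of the mutant with MSL2 and 3 of the 13 of the mutant alone stood alone, and so did 97 of the 149 of CLAMP with MSL2 and 14 of the 35 of CLAMP alone. The most frequent combinations were the list of CLAMP with MSL2 alone (97 regions), both FLAG lists and no other (40), the FLAG CLAMP list alone (36), the mutant with MSL2 alone (21) and both FLAG lists together with CLAMP and MSL2 (19). Among the 79 X CLAMP regions with an MSL2 peak, 41 (51.9%) were in a single CLAMP or FLAG list. Of the 294 autosome regions without MSL2, 199 (67.7%) were.

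By antibody, 77 regions (28.0%) were found with FLAG only, 145 (52.7%) with the CLAMP antibody only and 53 (19.3%, 14.8 to 24.4) with both. Of the autosome regions without MSL2, 29.6% were found with FLAG only, 51.7% with the CLAMP antibody only and 18.7% with both. Of the X regions with MSL2, 43.0% (31.9 to 54.7) were found with both antibodies. By protein, 25 regions (9.09%, 5.97 to 13.1) were found with the mutant only, 169 (61.5%) with CLAMP only and 81 (29.5%) with both. Of the 25, 21 were only in the list of the mutant with MSL2, 3 only in that of the mutant alone (CLAMP antibody) and 1 only in the FLAG mutant list. Over the series the CLAMP lists held 354, 74 and 429 peaks and the mutant lists 224, 38 and 70 (FLAG, CLAMP antibody alone, CLAMP antibody with MSL2). The part of list length in these classes was not tested. The mutant-only class held 0 of the 79 X regions with MSL2 (exact upper bound 4.56%) and 12.2% of the autosome regions without it. The CLAMP-only class held 58.2% and 60.5% of these, and the class with both proteins 41.8% and 27.2%. By mixture, 118 regions (42.9%) were found only in mixtures that held MSL2, 103 (37.5%) only without it and 54 (19.6%) in both. The FLAG antibody was not used with MSL2, and 77 of the 103 were in FLAG lists only, so antibody and mixture cannot be told apart for them. Only without MSL2 in the mixture were 7.59% of the X regions with an MSL2 peak and 34.4% of the autosome regions. Only with MSL2 in the mixture were 48.1% and 46.9% of these, and in both 44.3% and 18.7%.

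In the FLAG precipitation, 74 of the 76 mutant regions were also CLAMP regions, and CLAMP had 54 further ones. Over the whole series 219 of 224 FLAG mutant regions were FLAG CLAMP regions (97.8%, beside 97.4% here). These lists share their negative control, whose part in the overlap was not tested. The regions in the mutant list and not in the CLAMP list lay in SPR, which encodes the sex peptide receptor (X:5466575-5466725), and in Frq1, a neuronal calcium sensor gene (X:18171638-18171836). The Frq1 region was also found with the CLAMP antibody for CLAMP with MSL2.

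With the CLAMP antibody the list of CLAMP with MSL2 was longer than that of CLAMP alone. CLAMP had 149 regions with MSL2 and 35 without, and 12 of them were in both, which is 8.05% of the 149 and 34.3% of the 35. Of the regions of CLAMP alone, 10 of 10 on X with MSL2 and 11 of 19 on autosomes were also in the list with MSL2. The whole lists had 429 and 74 regions, with 41 in both, which is 9.56% and 55.4%. For the mutant, 30 regions with MSL2 and 13 without had 3 in common, 10% of the 30 and 23.1% of the 13, in lists of 70 and 38 regions with 6 in common. All 4 lists share the negative control of the CLAMP antibody. The FLAG antibody, with a control of its own, also found 7 of the 30 regions of the mutant with MSL2 (23.3%, 9.93 to 42.3), 5 of the 13 of the mutant alone (38.5%, 13.9 to 68.4), 46 of the 149 of CLAMP with MSL2 (30.9%, 23.6 to 39.0) and 12 of the 35 of CLAMP alone (34.3%, 19.1 to 52.2). At X regions with MSL2 and at autosome regions without it, FLAG found 3 of 4 and 2 of 31 for the mutant with MSL2, 5 of 5 and 6 of 14 for the mutant alone, 34 of 73 and 54 of 165 for CLAMP with MSL2, and 9 of 10 and 12 of 19 for CLAMP alone. No test of these differences was run.

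The 10 regions found in 4 or more lists were all in both FLAG lists. All 6 lists held the region in Him, an inhibitor of muscle differentiation (X:18210373-18210709), and that in nAChRalpha3, which encodes a nicotinic acetylcholine receptor subunit (X:8301326-8301507). Their nearest MSL2 regions lay 23.5 kb and 63.0 kb away. The region in shakB, an innexin gene of electrical synapses (X:20916585-20916838), was in every list but that of the mutant with MSL2. A region outside gene bodies, 7919 bp from lncRNA:CR44658 (X:14133601-14133809), was in every list but that of the mutant alone.

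Of the 6 regions in exactly 4 lists, 3 had peaks of the CLAMP antibody only in the mixtures with MSL2. These lay in Sp1, a zinc finger factor gene (X:9744072-9744444, the widest of the 275 at 373 bp), in Tomosyn, whose product restrains transmitter release (X:12640713-12641014), and in Moe, which encodes moesin, a linker of actin to the membrane (X:8897295-8897494). One region showed the opposite pattern. In asRNA:CR44894 (X:10195847-10196089), the CLAMP antibody found the mutant alone and CLAMP alone but neither mixture with MSL2. The remaining regions in 4 lists lay 7622 bp from Ten-a, a teneurin gene of synaptic partner matching (X:12342837-12343125), and 17558 bp from CG15882 (X:19105994-19106196). Both were found in the FLAG lists and with CLAMP in both mixtures of the CLAMP antibody, and the mutant was not found there by that antibody.

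A further 27 regions were in 3 lists, and 19 of them had the same combination, both FLAG lists and CLAMP with MSL2. Among these 19 were regions in SK, a calcium-activated potassium channel gene (X:5398621-5398841), in mamo, a zinc finger factor gene (X:13927573-13927831), in Cph (X:7204734-7205003), in Neto, an auxiliary subunit gene of glutamate receptors (X:13506322-13506564), in kirre, an adhesion gene of muscle fusion (X:2823013-2823221), in Mnt, a partner of Max (X:3682655-3682816), and in CHES-1-like, a forkhead gene (X:7690702-7690881). The gene IP3K2 had 2 such regions (X:13319721-13319912 and X:13322452-13322661), CG44422 had 2 and mgl had 2. In Sh, the Shaker potassium channel gene (X:18050827-18051029), CLAMP was found in all 3 of its lists and the mutant in none. Of the 37 regions in 3 or more lists, 2 lacked a FLAG peak, in lncRNA:CR43862 (X:20686634-20686870) and in Ran, a GTPase of nuclear transport (X:11144963-11145124).

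**Figure D2:**
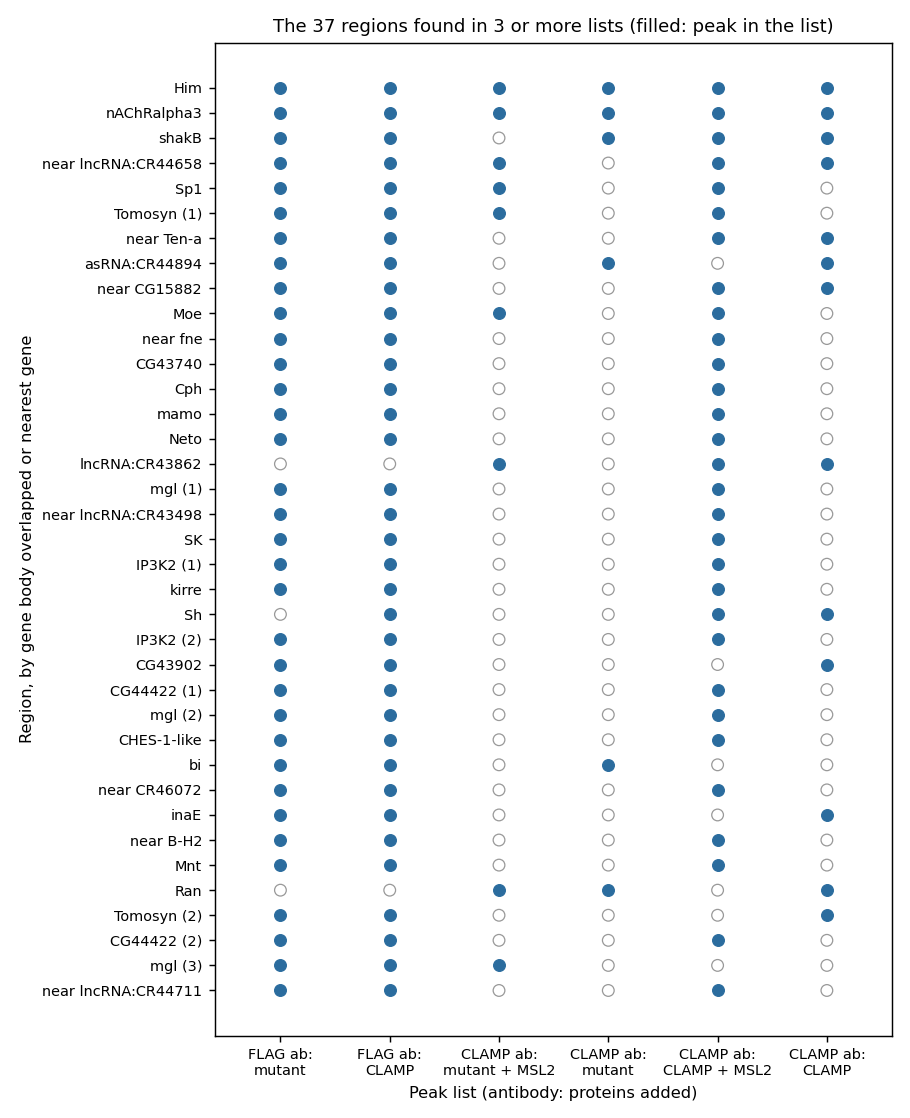
The 37 X regions without an MSL2 peak that were found in 3 or more lists (rows, named by the gene body overlapped or the nearest gene) against the 6 lists (columns), with filled circles where the list holds a peak. Both FLAG columns are filled in 34 rows and the column of CLAMP with MSL2 (CLAMP antibody) in 30.

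At FLAG CLAMP regions of X, the CLAMP antibody found CLAMP in the mixture with MSL2 less often where MSL2 had no peak. The share was 35.2% of the 128 regions without MSL2 (45 regions, 26.9 to 44.1) and 85.0% of the 40 with MSL2 (34 regions, 70.2 to 94.3), beside 44.1% of all 354 FLAG CLAMP regions. The difference was -49.8 percentage points (Fisher's exact test, two-sided, adjusted p = 2.17e-07 over 10 tests). Regions without MSL2 in which CLAMP was found by both antibodies in this way include Him, nAChRalpha3, shakB, Sp1 and Moe, while those in inaE, a diacylglycerol lipase gene (X:13784282-13784448), and in bi, a T-box gene (X:4420217-4420395), lacked a peak of CLAMP with MSL2. The test takes each region as independent and holds no information on how libraries vary. The MSL2 lists that split the regions are those of the rule, which also used the CLAMP antibody list compared here. A peak of the compared list can also join a FLAG CLAMP peak to an MSL2 peak in a merged region, and how often it did was not counted. The difference therefore describes which lists share regions, and its cause was not tested. The regions with MSL2 held a peak of the MSL2 list made with CLAMP in 78 of 79 cases, so the MSL2 and CLAMP peaks compared came from the same kind of mixture. FLAG CLAMP peaks lay in the first 50% of the file at 17 of the 128 regions without MSL2 and at 19 of the 40 with it. Within that part of the file the shares were 8 of 17 and 18 of 19 (exact test, adjusted p = 0.0226). With a reciprocal overlap of 50% and all lines, they were 36 of 134 (26.9%) and 23 of 34 (67.6%; exact test, adjusted p = 1.66e-04).

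For the other lists the shares at FLAG CLAMP regions of X were lower without MSL2, and none of these differences passed the adjusted test. The FLAG mutant was found at 57.8% (74 of 128, 48.8 to 66.5) without MSL2 and at 80.0% (32 of 40, 64.4 to 90.9) with it, beside 61.9% of all FLAG CLAMP regions (exact p = 0.0141, adjusted p = 0.0707). It passed with a reciprocal overlap of 50%, at 53.0% and 85.3% (exact test, adjusted p = 0.00352), whereas in the first 50% of the FLAG CLAMP list the shares were 15 of 17 and 18 of 19 (exact test, adjusted p = 0.741). With the CLAMP antibody, the mutant with MSL2 was found at 5.47% (7 regions) and 7.5% (3 regions), beside 3.95% overall (exact test, adjusted p = 0.879), and the mutant alone at 3.91% (5 regions) and 12.5% (5 regions), beside 6.21% overall (exact test, adjusted p = 0.148). CLAMP alone was found at 9.38% (12 regions, 4.94 to 15.8) and 22.5% (9 regions, 10.8 to 38.5), beside 11.6% overall (exact test, adjusted p = 0.148). Where a region was instead called shared if peak centres lay within 500 bp, that difference passed at 8% and 25.6% (exact test, adjusted p = 0.0290).

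Set against autosome FLAG CLAMP regions without MSL2, those of X gave no share that differed past the test. The FLAG mutant was found at 57.8% on X and at 53.6% on the autosomes (75 of 140, 45.0 to 62.0; exact test, adjusted p = 0.876). CLAMP with MSL2 was found at 35.2% and 38.6% (54 of 140, 30.5 to 47.2; exact test, adjusted p = 0.876), and CLAMP alone at 9.38% and 8.57% (exact test, adjusted p = 0.926). The mutant with MSL2 was found at 5.47% and 1.43% (2 of 140, 0.173 to 5.07; exact test, adjusted p = 0.182), and the mutant alone at 3.91% and 4.29% (exact test, adjusted p = 1). These 5 comparisons were added after the data were examined.

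**Figure D3:**
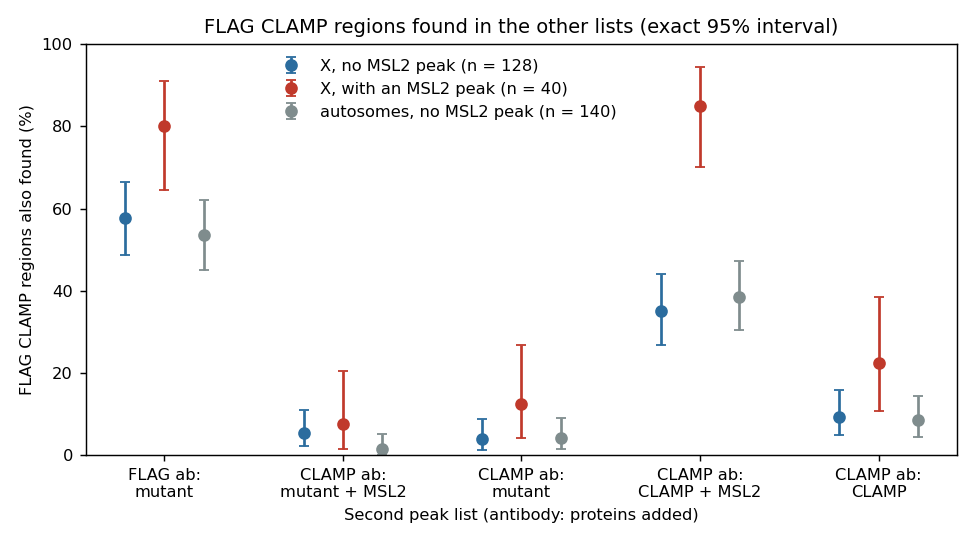
Percentage of FLAG CLAMP regions (vertical axis) also found in each of the other 5 lists (horizontal axis), for X regions without MSL2 (blue, 128), X regions with MSL2 (red, 40) and autosome regions without MSL2 (grey, 140). Points are shares and bars exact 95% intervals, and for CLAMP with MSL2 the blue interval of 26.9 to 44.1 lies below the red one of 70.2 to 94.3.

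The nearest region with an MSL2 peak, of which X had 227, was at a median of 28.9 kb, with 14 of the 275 within 500 bp (5.09%), 25 within 2 kb, 78 within 10 kb (28.4%) and 229 within 100 kb. Autosome regions without MSL2 lay farther from the nearest MSL2 region, at a median of 106.9 kb with 9.18% within 10 kb. Such a distance depends on how densely MSL2 regions lie, which was not compared between X and the autosomes. No test of this was run. Regions in 2 or more lists had a median distance of 38.8 kb, and those in 1 list 23.5 kb. The farthest, near the end of the gene table's X sequence (X:23179458-23179608), was 1735.3 kb away, was found only for the mutant with MSL2 and lay 21193 bp from 28SrRNA-Psi:CR45853, a pseudogene of ribosomal RNA. The next farthest lay 60891 bp (X:22383185-22383335) and 17997 bp (X:22426079-22426229) from CG14621, both found only for CLAMP with MSL2.

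Some regions sat directly beside an MSL2 region. In CG43902, a region of both FLAG lists and of CLAMP alone (X:10170989-10171179) lay 4 bp from a region found by MSL2 alone and by MSL2 with CLAMP (X:10170758-10170984). In Cph, a FLAG CLAMP region (X:7154434-7154584) lay 11 bp from a region of all 3 MSL2 lists. In CrebB, a gene of the cAMP response element binding family, a region found for the mutant alone and CLAMP alone (X:18374834-18374991) was 27 bp from a peak of MSL2 with CLAMP, and in Tomosyn one of both FLAG lists and CLAMP alone (X:12649755-12649916) was 38 bp from a region of all 3 MSL2 lists. On the other side of the rule, the X CLAMP regions with the least overlap between a CLAMP or FLAG peak and an MSL2 peak shared 10, 16, 16, 28 and 38 bp, and 66 of the 79 shared over 75 bp. The MSL2 list made with the mutant took out no region by itself. Of the 79, 32 held MSL2 only in the list with CLAMP and 1 only in that of MSL2 alone.

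**Figure D4:**
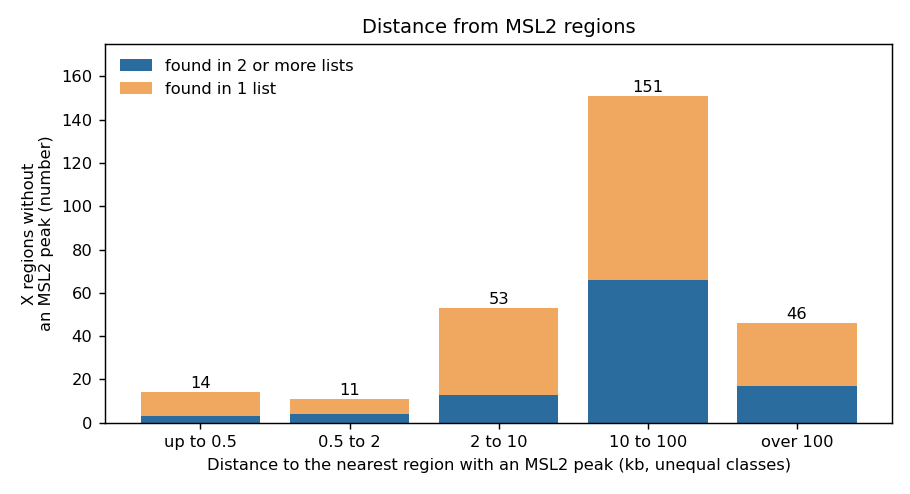
Number of X regions without an MSL2 peak (vertical axis) by distance to the nearest X region with one (horizontal axis, classes of unequal width in kb), split by whether the region was in 2 or more lists (blue) or in 1 (orange). Of the 275, 151 lie between 10 and 100 kb, and 14 lie within 0.5 kb.

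Gene bodies held 216 of the 275 regions (78.5%, 73.2 to 83.2), where 74.6% of X lies in gene bodies of the RefSeq table. X regions with MSL2 lay in gene bodies in 76 of 79 cases (96.2%, 89.3 to 99.2). No test of this difference was run, and the intervals take regions as independent. The autosome regions without MSL2 lay there in 68.0% (62.4 to 73.3). The genes were long, with a median of 47.7 kb for X regions without MSL2, 31.1 kb for X regions with it and 47.7 kb for autosome regions without it. The length-weighted median of X genes of all types was 30.9 kb, with overlapping genes each counted in full. A region was instead named by the longest protein-coding gene it overlapped, so the medians are not measured alike. Of the 59 regions outside gene bodies, 19 were within 2 kb of one and 10 were over 10 kb away. Exons, introns and untranslated regions were not resolved, since the table gives only the start and end of a gene.

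In all, 128 protein-coding genes held such a region, and 53 of them (41.4%) also held a region with an MSL2 peak. Of all 2197 protein-coding X genes 7.42% held an MSL2 region. Among genes over 20 kb the shares were 53.8% of the 78 with a CLAMP region without MSL2 and 37.9% of all 198. Length was not matched within that class, and its part in these shares was not tested. Genes held several regions in 42 cases, and 15 of these had no MSL2 region. The gene with most, named after its values were seen, was mgl, which encodes megalin, an endocytic receptor. It held 10 regions in 141.6 kb and no MSL2 region. These 10 were found 1 time for the mutant with MSL2, 1 time for the mutant alone, 7 times for CLAMP with MSL2, 1 time for CLAMP alone, and in the FLAG lists 3 times for the mutant and 4 times for CLAMP. A cluster of 3 of them lay within 0.782 kb of sequence (X:9380318-9381099), and the middle one of these was in both FLAG lists. Ten-a with 3 regions, br with 3, kek5 with 3 and CG43658 with 4 also had no MSL2 region. The gene br lies inside Mur2B, which held 1 MSL2 region. A region in overlapping genes counts for each gene, as for CG15465 and rg, which have the same coordinates and the same 6 regions.

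The gene shakB held 8 regions in 166.0 kb and 1 MSL2 region. Besides the region in 5 lists, 2 were in both FLAG lists (X:20801843-20802005 and X:20849930-20850086) and 5 were in a single CLAMP antibody list. Tomosyn held 7 regions in 21.8 kb, or 32.1 per 100 kb, where X as a whole had 1.17 per 100 kb, and 2 MSL2 regions lay between them. The gene mamo held 7 regions and 4 with MSL2, and Sh held 4 and 8. Regions within 10 kb of each other formed 40 clusters with 95 of the 275 (34.5%). Those with most were Tomosyn (7 regions in 16.6 kb), bi with its overlapping lncRNA:CR32773 (5 in 15.5 kb), oc, the head homeobox gene orthodenticle (4 in 21.0 kb), and shakB (4 in 17.3 kb). The clusters at bi, oc and shakB held no MSL2 region. Found in 2 or more lists were 4 of the 7 regions of the Tomosyn cluster, 2 of 5 at bi, 2 of 4 at oc and 1 of 4 at shakB. Clustering was not compared with that of other regions or with an even spread.

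**Figure D5:**
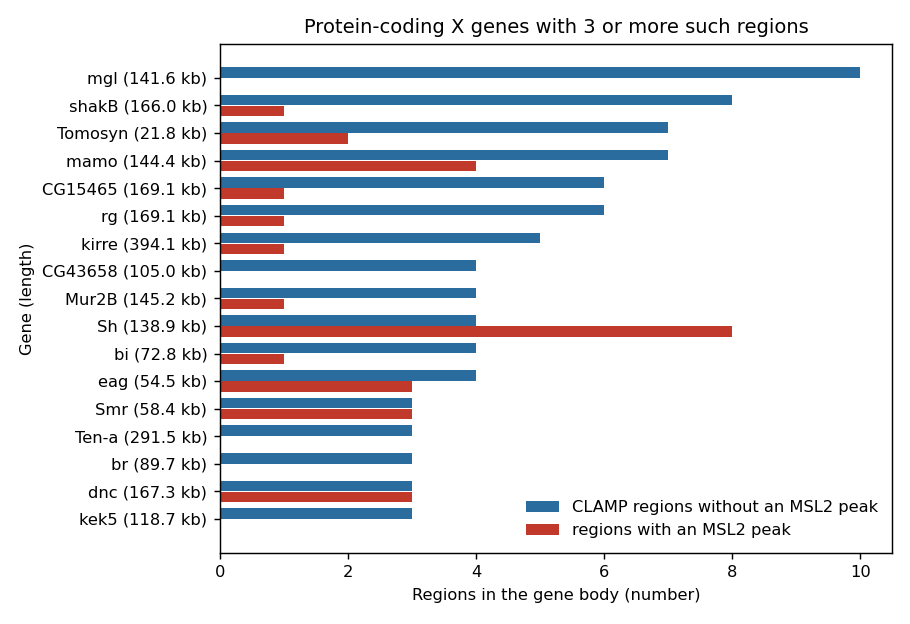
Number of regions in the gene body (horizontal axis) for the 17 protein-coding X genes with 3 or more CLAMP regions without an MSL2 peak (vertical axis, with gene length in kb), beside the number of regions with an MSL2 peak. The gene mgl has 10 without and 0 with MSL2, and Sh has 4 without and 8 with MSL2. The genes CG15465 and rg have the same coordinates and show the same 6 regions.

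Listed genes were searched within 2 kb, a distance at which 8.1% of all 2705 X genes and 8.47% of the protein-coding ones had a region. The lists were written with earlier results of these data known and hold long genes, so no test was made and no comparison is drawn from their shares. None of the 3 X genes of dosage compensation listed, roX1, roX2 and mof, had one, and 2 of them had an MSL2 region. Regions with an MSL2 peak were left out by the rule, so CLAMP binding at these genes cannot be read from this. Of 13 ion channel genes on X (median length 54.5 kb), 8 had 24 regions in all, and 10 had an MSL2 region. These included para, the voltage-gated sodium channel gene, with a region of both FLAG lists (X:16476678-16476851) and one of the mutant with MSL2 (X:16480612-16480762). The potassium channel gene eag had 4, each found in 1 or 2 lists, of which 1 was found for the mutant with MSL2, 2 for CLAMP with MSL2, 1 for CLAMP alone and 1 by FLAG CLAMP. Hk, a potassium channel subunit gene, had 1, by FLAG CLAMP (X:10233467-10233617), and Ca-alpha1T, a T-type calcium channel gene, had 2. The genes cac, nAChRalpha7, ogre, Inx2 and Inx7 had none.

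Of 30 X genes listed as transcription regulators (median length 19.8 kb), 16 had 39 regions and 13 had an MSL2 region. The receptor gene N, whose product enters the nucleus after cleavage, had 1, in both FLAG lists (X:3143354-3143557). The ecdysone-response gene br, which overlaps Mur2B, had 4, of which 1 was found by FLAG CLAMP and by CLAMP with MSL2 (X:1623332-1623483), 1 by FLAG CLAMP and 2 by CLAMP with MSL2. The T-box gene bi had 5, and the one in 3 lists was found with the mutant alone and not with CLAMP by the CLAMP antibody, while FLAG found both proteins there. The homeobox gene OdsH had 2, of which 1 was in both FLAG lists (X:17806389-17806567). The corepressor gene Smr had 3, of which 1 was in both FLAG lists (X:12720223-12720378). The POU gene acj6 and the homeobox gene unc-4 each had a region only for the mutant with MSL2 (X:15356311-15356461 and X:17774985-17775135), and acj6 had another for CLAMP with MSL2. CrebB had the region beside MSL2 described above and another 130 bp from the gene, by FLAG CLAMP (X:18366076-18366226). Genes without one included ac, sc, vnd, ct, sd, run and Sxl.

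Of 17 listed synapse and signalling genes, 10 had 19 regions, 7 of them in Tomosyn, and 8 genes had an MSL2 region. Regions in both FLAG lists and no other lay in dnc, a cAMP phosphodiesterase gene (X:3292876-3293029), and in dlg1, a scaffold gene of synapses (X:11397509-11397723). A region of FLAG CLAMP only lay in rut, an adenylate cyclase gene (X:14824972-14825122). The cytokine gene upd3 had 1 at 1095 bp, in FLAG CLAMP and CLAMP alone (X:18285692-18285876). None lay within 2 kb of upd1, upd2, sgg, norpA, fz4, hiw or Frq2.

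Regions of a single list differ in what they can show. The 3 found only for the mutant alone lay in futsch, a microtubule-associated protein gene (X:1409666-1409816), in gce, a juvenile hormone receptor gene (X:15306463-15306613), and in wcy (X:17076681-17076831). Among the 21 found only for the mutant with MSL2 were those in CG32812 (X:1288663-1288813), CG42340 (X:6516937-6517087), CG32719 (X:7515093-7515243) and CG33181 (X:8504376-8504526). The 97 only for CLAMP with MSL2 included those in Coa8 (X:1881016-1881166), Actn, which encodes the actin crosslinker alpha-actinin (X:2024929-2025079), and kirre (X:2813840-2813990). The 14 only for CLAMP alone included those in LPCAT (X:9573643-9573793), CARPB (X:9847523-9847673), CG15249 (X:9895497-9895647) and hwt (X:12522312-12522462). The 36 only by FLAG CLAMP included those in Tlk, a kinase gene (X:3748941-3749091), and, 14454 bp from the gene, Vsx1, a homeobox gene of the visual system (X:5579650-5579800).

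Where 2 lists held the same region, close centres of their peaks follow in part from the rule, since peaks were merged where they overlapped. For the FLAG mutant and FLAG CLAMP the median distance between centres was 12 bp over 74 regions (quartiles 3 and 40.8), with 63.5% within 25 bp. It was 8.5 bp over 32 X regions with MSL2 (65.6% within 25 bp) and 8 bp over 75 autosome regions (78.7%). For FLAG CLAMP and CLAMP with MSL2 by the CLAMP antibody the median was 40 bp over 45 regions (quartiles 5 and 70), with 37.8% within 25 bp. It was 23.5 bp over 34 X regions with MSL2 (52.9%) and 18 bp over 54 autosome regions (59.3%). For FLAG CLAMP and CLAMP alone it was 17.5 bp over 12 regions. All but 3 peaks of the 9 lists were 151 bp wide, so peak width was no measure of signal.

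In each of the 6 lists a smaller share of the regions without MSL2 stood in the first 50% of the lines than of the X regions with MSL2 or of the autosome regions without it. For the mutant with MSL2 and the mutant alone this rests on 4 and 5 X regions with MSL2. In the FLAG CLAMP list 17 of the 128 were in the first 50% of the lines (13.3%, 7.93 to 20.4), against 19 of 40 X regions with MSL2 (47.5%, 31.5 to 63.9) and 98 of 140 autosome regions without MSL2 (70%, 61.7 to 77.4). In the FLAG mutant list the numbers were 9 of 76 (11.8%), 11 of 32 (34.4%) and 54 of 77 (70.1%). For CLAMP with MSL2 they were 32 of 149 (21.5%), 43 of 73 (58.9%) and 102 of 165 (61.8%). For CLAMP alone (CLAMP antibody) they were 7 of 35, 7 of 10 and 13 of 19, for the mutant alone 0 of 13, 4 of 5 and 9 of 14, and for the mutant with MSL2 6 of 30, 1 of 4 and 23 of 31. Regions in no other list came later still, with 1 of 36 in the first 50% for FLAG CLAMP and 16 of 97 for CLAMP with MSL2. What the order of lines ranks is not stated in the headers, and its part in the results was not tested. Along X, the windows of 5 Mb from the start of the sequence held 35, 75, 72, 68 and 25 regions without MSL2, or 7, 15, 14.4, 13.6 and 7.07 per Mb, where regions with MSL2 had 6.4, 12, 12.8, 11.2 and 4.24 per Mb.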

How the data were processed

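Peak lists of 9 groups were used. Tags were processed with Bowtie2 2.2.9, SAMtools 1.9 and HOMER 4.9 on dm6, per the submitters' processing notes. Peak calling by the authors used findPeaks of HOMER (factor style), with 1 merged tag set for each group set against the negative control of the same antibody, requiring 10-fold over control and 4-fold over the surrounding 10000 bp at a false discovery rate of 0.001, per the file headers. A region absent from a list thus missed at least 1 filter, which is no measured loss of signal. The deposited score column is 1 in every line and carries no measurement.

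Starts were converted to 1-based coordinates, and peaks sharing at least 1 bp were merged. Genes came from a RefSeq table of Release 6 plus ISO1 MT, matched by position and named by the longest protein-coding gene body overlapped, otherwise the nearest. Shares carry exact (Clopper-Pearson) 95% intervals. Fisher's exact test (two-sided) compared classes of regions, with Benjamini-Hochberg adjustment over 10 tests and a threshold of 0.05. The merging was tested on simulated lists. The regions and gene lists were chosen with earlier results of these data known. Named regions are those in 4 or more lists, up to 5 of each single list ranked by width and position, the 3 nearest to and farthest from MSL2, and those at listed genes. Those in 3 lists, the genes with most regions and other regions named as examples were chosen after their values were seen. The planned width test could not be made, since peaks have 1 width, and the planned sequence features were not analysed. Calculations used Python 3.11.15, numpy 2.4.6 and scipy 1.17.1.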

Additional observations from a re-analysis of the deposited data

How the results depend on the processing

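The number of X CLAMP regions without MSL2, 275 as reported, was between 197 and 308 when peaks within 500 bp were merged, when MSL2 peaks within 500 bp, 2 kb or 10 kb also excluded a region, when a reciprocal overlap of 50% was required, or when fewer MSL2 lists excluded regions. It was 80 when lists were cut to their first 50% of lines and, in an alternative added after seeing the data, 130 with the FLAG lists only. With the first 50% of each list, the regions numbered 16 for the FLAG mutant, 28 for FLAG CLAMP, 7 for the mutant with MSL2, 3 for the mutant alone, 59 for CLAMP with MSL2 and 11 for CLAMP alone, and 24 were in at least 2 lists (103 as reported). These are fewer by construction. With only the lists that had over 0.1% of their tags in peaks, 233 regions stood and 92 were in at least 2 lists.

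At FLAG CLAMP regions of X, the difference between regions without and with MSL2 was -32.3 points for the FLAG mutant with a reciprocal overlap of 50% (adjusted p = 0.00352, exact test) and -17.6 points for CLAMP alone with centres within 500 bp (adjusted p = 0.0290, exact test), both now past the threshold, and the cause was not tested. In the first 50% of the FLAG CLAMP list it was -6.5 points for the FLAG mutant (adjusted p = 0.741, exact test) and 6.50 points for the mutant with MSL2, with the sign turned (adjusted p = 0.741, exact test). Against autosome regions, the sign turned with centres within 500 bp for CLAMP alone (-0.0292 points) and CLAMP with MSL2 (2.04), and in the first 50% of the FLAG CLAMP list for CLAMP with MSL2 (0.120) and the mutant alone (6.66), none past the threshold. Of 52 recomputed values, 36 kept their direction and their side of the threshold, or stayed within 1.5 times.

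No paired analysis was possible because each deposited list was called on the merged libraries of a group, and for the same reason leaving out single libraries was not run. Total tags differed between lists, and their part in the number of regions per list was not tested.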
